A study of Mus musculus with 3 samples.

Results

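The semaphorins, plexins and neuropilins were described in Meis1-EGFP positive cells of the mouse fetal kidney. The set was taken by gene symbol and holds 31 genes, of which 20 are semaphorins and 11 are receptors. All 31 had at least 1 probe set that the platform annotation gives to that symbol alone, and together they had 78 of the 45037 non-control probe sets. The whole array covered 18193 genes by the same rule.

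The cells came from E15.5 fetal kidneys (Theiler stage 23) of CD-1 mice that carried the transgene Tg(Meis1-EGFP)FO156Gsat, in which the reporter marks Meis1 expression. Kidneys of unknown sex were pooled in lots of about 20, dissociated in trypsin, and sorted for green fluorescence. RNA was amplified in 2 rounds and hybridised to 1 array per pool, giving 3 arrays of 1 group. No other sort, unsorted kidney or untreated control was measured, so every gene was compared with a background level on the same array. Whether different litters went into the pools is not labelled, so a p-value here reflects the spread among 3 arrays, and that spread may be technical. The labels call the sorted cells both peripheral blastema and nephrogenic interstitium. All 12 markers of the nephrogenic interstitium were above background, with Foxd1 at 7.46 ± 0.21, Meis1 at 6.83 ± 0.21 and Meis2 at 7.59 ± 0.20 log2 units above it (SE, n = 3). Of 10 markers of the cap mesenchyme, the nephron progenitors, 7 were above background (70%). Both counts are to be read beside the 57.3% of all genes above background. Summed signals were 46492 to 53885 per array for the cap mesenchyme markers and 227049 to 250134 for the 12 interstitial markers. In replicate 1, Gdnf, Sall1 and Itga8 gave 24382, 9444.5 and 8347 of the 46492, and Six2 gave 508. Probe sets differ in affinity, so these sums do not compare amounts of the cell types. Six2 lay at 1.85 ± 0.21, Eya1 at 3.46 ± 0.27 and Sall1 at 6.11 ± 0.20. Gdnf at 7.36 ± 0.20 and Itga8 at 5.46 ± 0.24 are named after their values were seen. Cited1 (-4.21 ± 0.19), Osr1 (-3.14 ± 0.37) and Uncx (-0.59 ± 0.29) were not above background. Uncx is also named after its values were seen. The part of cap mesenchyme cells in the members' signals was not tested.

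Semaphorins are guidance ligands, first known for steering axons and since then for shaping vessels, immune cells and branching epithelia. Class 3 members are secreted, classes 4 to 6 span the membrane and class 7 is held in it by a lipid anchor. Plexins are their signalling receptors and act on small GTPases to change adhesion and the cytoskeleton, while neuropilins have short cytoplasmic tails and serve as co-receptors for most class 3 ligands and for vascular endothelial growth factors. In the developing kidney, semaphorin signals are known to influence ureteric branching and the patterning of vessels.

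Each array had its own background level, set at the 95th percentile of the log2 values of 71 odorant, vomeronasal and trace amine receptor genes. These genes are known mainly from sensory neurons, and whether the sorted cells make any of them was not tested. It corresponded to a signal of 136, 186 and 169 in replicates 1, 2 and 3. Each gene was represented by its brightest probe set (mean of log2 values over the arrays), and its distance from the level was tested above 0, one-sided, with limma over all 18193 genes and Benjamini-Hochberg adjustment at 0.05. Probe sets differ in affinity, so a distance says how clearly a gene was detected and was not used to rank transcripts by abundance. In such bulk RNA, fewer cells of a type and less RNA per cell cannot be told apart.

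Receptors were detected more completely than ligands. Of the 11 receptors 10 were above background (90.9%), and of the 20 semaphorins 13 were (65.0%). Together 23 of 31 members were above background (74.2%), beside 57.3% of all genes. Counts of the smaller classes given below are to be read beside that same share. The median distance was 3.21 log2 units for receptors, 2.12 for semaphorins and 1.51 for all genes. Receptors had the higher median of the 2 classes on each array, at 3.50, 2.97 and 3.12 against 2.21, 2.15 and 2.01 in replicates 1, 2 and 3. The 8 members that were not above background were Sema3b, Sema3g, Sema4b, Sema5b, Sema6b, Sema6c, Sema7a and Plxna4. The classes were not tested against each other, since they are short lists of genes and not replicates.

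The share of genes above background rose with the number of probe sets per gene. Whether the choice of the brightest probe set accounts for that rise was not tested. Members had 2.52 probe sets on average and all genes 1.92. Of all genes with 1 probe set 39.2% were above background, and the share was 68.0% with 2, 80.3% with 3 and 88.6% with 4 or more. Averaging these shares over the members' own probe set numbers gave 69.5% for the whole set, 69.0% for semaphorins and 70.3% for receptors. Against those figures the observed 74.2% and 65.0% were near the background, and the 90.9% of receptors stood further from it, a difference that was not tested. Counted by probe set, 33 of 78 were above background (42.3%), beside 41.9% of all probe sets. The ligands contributed 18 of 48 (37.5%) and the receptors 15 of 30 (50%).

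**Figure D1:**
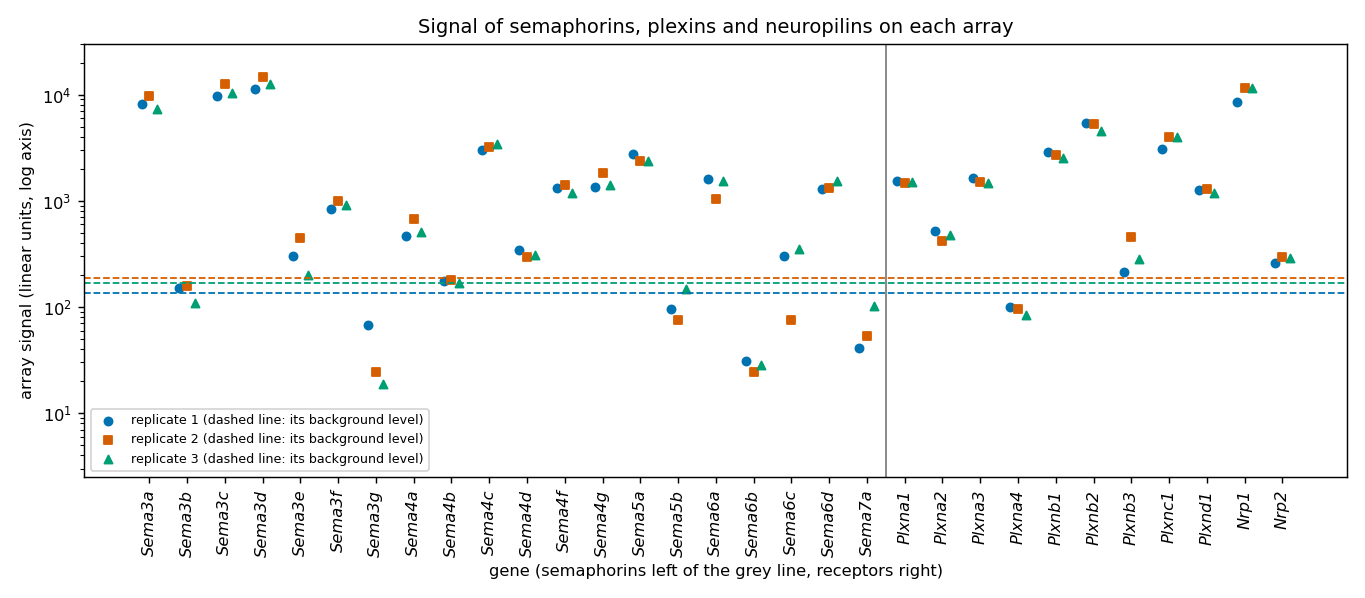
Array signal of each semaphorin (left of the grey line) and each receptor (right) in the 3 replicates, on a log axis, with each array's background level as a dashed line (136, 186 and 169). Sema3a, Sema3c, Sema3d and Nrp1 lie between 7392 and 14771 on every array, and 7 of the 8 members not above background lie near or under the lines on every array, Sema6c being above them in replicates 1 and 3 (304 and 351).

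**Figure D2:**
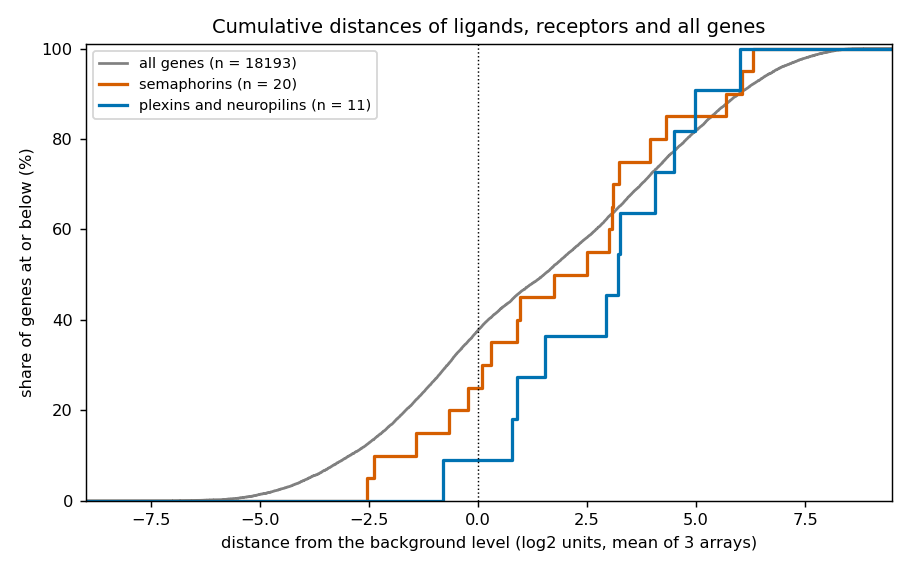
Cumulative share of genes by distance from the background level (log2 units, mean of 3 arrays) for 20 semaphorins, 11 receptors and all 18193 genes. The receptor curve starts at -0.80 and has its median at 3.21, to the right of the semaphorin median of 2.12 and of the median of all genes at 1.51.

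Among the secreted class 3 ligands, 5 of 7 were above background, and 3 of them lay more than 5 log2 units above it. Sema3d, known for roles in vein patterning and neural crest migration, gave signals of 11376, 14771 and 12725 in replicates 1, 2 and 3. It exceeded background by 6.31 ± 0.19 log2 units (SE, n = 3), or 79.3-fold (limma adjusted p = 1.04e-06). Sema3c, which guides neural crest cells into the outflow tract of the heart, gave 9606, 12492 and 10464 and lay 6.05 ± 0.20 above (66.4-fold; limma adjusted p = 1.07e-06). Sema3a, the growth cone repellent that is known to restrain ureteric branching, gave 8232, 9644 and 7392 and lay 5.69 ± 0.21 above (51.5-fold; limma adjusted p = 1.36e-06). Each of the 3 was highest in replicate 2, and the highest array exceeded the lowest by 1.30-fold in each. A further probe set was above background for Sema3d (2.55 ± 0.24), Sema3c (1.14 ± 0.23) and Sema3a (3.37 ± 0.23), and the third Sema3a probe set lay at -1.28 ± 0.28.

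The other class 3 ligands lay nearer to the background level or under it. Sema3f, a ligand that uses Nrp2, gave 845, 1006 and 908 and lay 2.497 ± 0.20 log2 units above background (limma adjusted p = 2.84e-05). That value comes from a probe set of the type that can cross-hybridise, and the plain Sema3f probe set lay at -2.52 ± 0.43. Sema3e, which binds Plxnd1 without a neuropilin and repels vessels, gave 304, 443 and 202 and lay 0.89 ± 0.27 above (limma adjusted p = 0.0160). Its arrays differed by up to 2.19-fold, 3 of its 4 probe sets were not above background, and the call was lost without replicate 1 (0.75, limma adjusted p = 0.104). Sema3b, a neuropilin ligand, was not above background at -0.24 ± 0.24, with 152, 157 and 109. Sema3g, known from arterial endothelium, was not above it either at -2.38 ± 0.45, with 67.5, 24.2 and 18.8.

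Sema3d, Sema3a, Sema3e and Sema3c lie in this order on chromosome 5 of the mouse. No protein-coding gene lies between Sema3d and Sema3a, 3 lie between Sema3a and Sema3e, and 15 between Sema3e and Sema3c. All 4 were above background, Sema3e on 1 of its 4 probe sets. A second pair, Sema3b and Sema3f, has 3 protein-coding genes between its members. The 250 bases before the annotated starts of the chromosome 5 genes are shown because the genes are neighbours of 1 class and the bases differ in composition. They are from RefSeq (GRCm38.p6), all on the plus strand, written 5′ to 3′ with each CG dinucleotide in capitals, at chr5:12382916-12383165 for Sema3d, chr5:13396534-13396783 for Sema3a, chr5:14025026-14025275 for Sema3e and chr5:17574566-17574815 for Sema3c.
Sema3d: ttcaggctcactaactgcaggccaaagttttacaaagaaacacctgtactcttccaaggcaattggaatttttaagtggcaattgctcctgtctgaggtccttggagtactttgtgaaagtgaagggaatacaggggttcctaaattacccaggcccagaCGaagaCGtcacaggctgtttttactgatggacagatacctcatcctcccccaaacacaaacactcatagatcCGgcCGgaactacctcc
Sema3a: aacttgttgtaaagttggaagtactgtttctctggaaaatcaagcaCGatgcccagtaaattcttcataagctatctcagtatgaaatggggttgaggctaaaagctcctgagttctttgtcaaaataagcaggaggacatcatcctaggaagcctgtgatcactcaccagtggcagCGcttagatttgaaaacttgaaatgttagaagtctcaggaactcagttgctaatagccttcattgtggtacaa
Sema3e: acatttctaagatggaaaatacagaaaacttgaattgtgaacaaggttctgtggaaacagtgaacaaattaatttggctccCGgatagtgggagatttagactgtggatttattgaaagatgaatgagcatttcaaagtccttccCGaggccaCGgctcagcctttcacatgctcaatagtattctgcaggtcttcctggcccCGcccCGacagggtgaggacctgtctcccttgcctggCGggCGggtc
Sema3c: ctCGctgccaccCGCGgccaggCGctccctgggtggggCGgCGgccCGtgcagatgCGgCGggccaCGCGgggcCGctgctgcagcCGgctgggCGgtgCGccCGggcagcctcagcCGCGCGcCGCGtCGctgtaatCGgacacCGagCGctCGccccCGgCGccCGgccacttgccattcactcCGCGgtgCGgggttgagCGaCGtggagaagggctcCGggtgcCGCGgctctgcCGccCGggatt

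These stretches hold 4, 2, 7 and 39 CG dinucleotides in Sema3d, Sema3a, Sema3e and Sema3c. Their G and C content was 46.8%, 40.8%, 48% and 78.4%. No relation between these bases and the signals was tested. The listed start of Sema3a lies 271962 bases inside the annotated gene, so an upstream start of that gene is not shown.

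Promoter windows of 300 bases (250 before and 50 after the start) were found for 26 of the 31 members. Sema3b, Sema3f, Sema6a, Plxna1 and Plxna4 had no entry. Over all genes with a window, the ratio of observed to expected CG dinucleotides had a median of 0.79 in 8497 genes above background and 0.35 in 5955 genes not above it. Among the members the order was the other way, with 0.64 in 20 members above background and 0.76 in 6 that were not. The lowest ratios among members were 0.10 for Sema4d, 0.13 for Plxnb3, 0.15 for Sema4a and 0.16 for Sema3a, all above background. The listed starts of Sema4d and Sema3a lie 36995 and 271962 bases inside the annotated genes. Their windows therefore do not cover the upstream ends of these genes, and the medians were not worked out without them. The motif TGACAG, the core bound by Meis proteins, was searched on both strands (CTGTCA on the other) and was found in 4 member windows (15.4%), those of Sema3g, Sema4d, Sema7a and Plxna2, beside 17.6% of all windows. These are descriptions of few sequences, and no test was made.

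Of the class 4 transmembrane ligands 5 of 6 were above background. Sema4c, a ligand of Plxnb2, gave 3014, 3233 and 3440.2 in replicates 1, 2 and 3 and lay 4.31 ± 0.20 log2 units above (SE, n = 3; 19.8-fold; limma adjusted p = 2.87e-06). Sema4g gave 1361, 1846 and 1411 and lay 3.23 ± 0.20 above, and Sema4f gave 1322, 1402 and 1181 and lay 2.998 ± 0.21 above. Both Sema4f probe sets were above background. The value given is from the type that can cross-hybridise, and the plain one lay at 1.99 ± 0.21. These 3 genes were well separated from the background level on every array.

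Sema4a, a ligand known from immune cells that also binds Plxnd1, gave 469, 676 and 511 and lay 1.75 ± 0.20 above (limma adjusted p = 0.000174). This rests on a probe set of the cross-hybridising type, and the plain one lay at -0.08 ± 0.25. Sema4d, the Plxnb1 ligand also known as CD100 on leukocytes, gave 344, 293 and 311 and lay 0.96 ± 0.23 above (limma adjusted p = 0.00577), with its 2 other probe sets at -1.93 ± 0.36 and -2.33 ± 0.69. Sema4b was not above background, with 176, 178 and 168 and a distance of 0.10 ± 0.21 (limma adjusted p = 0.537). It was within the spread of the level and gave nearly the same signal on the 3 arrays.

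In classes 5 and 6, 3 of 6 ligands were above background. Sema5a, whose extracellular part carries thrombospondin repeats, gave 2774, 2395 and 2368 and lay 3.95 ± 0.23 log2 units above (SE, n = 3; limma adjusted p = 6.62e-06), on 1 of 4 probe sets. Its relative Sema5b gave 95.6, 74.8 and 148 and lay at -0.67 ± 0.28. Sema6d, a ligand of Plxna1 in heart development, gave 1304, 1332 and 1543 and lay 3.10 ± 0.21 above (limma adjusted p = 1.31e-05). Sema6a, a ligand of plexins A2 and A4, gave 1618, 1029 and 1540.0 and lay 3.07 ± 0.27 above (limma adjusted p = 4.95e-05). Replicate 2 was the low array for Sema6a. The other Sema6a probe sets were not above background, at -0.26 ± 0.22 and -0.62 ± 0.45. Sema6b was not above background at -2.55 ± 0.24, with 31, 24.4 and 28.4.

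Sema6c was the member on which the arrays differed most. Its signals were 304, 76.1 and 351, so that replicates 1 and 3 lay above their background levels and replicate 2 below its own. The distance of 0.31 ± 0.51 did not pass the test (limma adjusted p = 0.470). Without replicate 2 it was 1.10 (limma adjusted p = 0.00274). Sema7a, the lipid-anchored ligand of Plxnc1 and of integrins, was not above background at -1.41 ± 0.28, with 41.4, 53.8 and 102.

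Both neuropilins were above background, at very different distances. Nrp1, co-receptor of Sema3a, Sema3c and Sema3d and also of vascular endothelial growth factor, gave 8585, 11524 and 11464 and lay 6.004 ± 0.19 log2 units above (SE, n = 3; 64.2-fold; limma adjusted p = 1.07e-06). All 4 Nrp1 probe sets were above background, from 2.22 ± 0.28 to 6.004 ± 0.21. They ordered the arrays differently, since the brightest was lowest in replicate 1, while the next gave 6207, 5532 and 4496 and was highest there. Differences of Nrp1 between the pools therefore depended on the probe set. Nrp2, co-receptor of Sema3f and Sema3g, gave 258, 295 and 288 and lay 0.78 ± 0.20 above (1.72-fold; limma adjusted p = 0.00760). It was above on each array, but only 1 of its 4 probe sets was, and the call was lost without replicate 3 (0.79, limma adjusted p = 0.0822).

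Of the A plexins, which signal for class 3 ligands with neuropilins and for class 6 ligands directly, 3 of 4 were above background. Plxna3 gave 1642, 1518 and 1471 and lay 3.25 ± 0.22 log2 units above (SE, n = 3). Plxna1 gave 1545, 1459 and 1501 and lay 3.21 ± 0.21 above. The other probe set of each was not above background, at -1.90 ± 0.28 for Plxna3 and -1.01 ± 0.47 for Plxna1. Plxna2 gave 516, 420.4 and 479 and lay 1.53 ± 0.23 above (limma adjusted p = 0.000703), on 1 of 4 probe sets. Plxna4, a receptor of Sema3a and of Sema6a in neurons, was the receptor not above background, with 100.1, 95.3 and 84.8. Its distance was -0.80 ± 0.22, and neither of its 2 probe sets passed. Plxna4 was below the level on all 3 arrays, and a failed probe set cannot be told apart from a low transcript.

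All 3 B plexins were above background. Plxnb2, known to promote ureteric branching, gave 5382, 5337 and 4571 and lay 4.97 ± 0.22 log2 units above (SE, n = 3; 31.3-fold; limma adjusted p = 2.27e-06). Plxnb1, the receptor of Sema4d, gave 2911, 2673 and 2516 and lay 4.05 ± 0.22 above, with both probe sets above background. Plxnb3, a receptor of Sema5a, gave 215, 459 and 282 and lay 0.90 ± 0.23 above (limma adjusted p = 0.00763). That value comes from a probe set of the cross-hybridising type, and the plain one lay at -0.99 ± 0.27. Plxnb1 and Plxnb2 were thus detected clearly and Plxnb3 only near the level.

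Plxnc1, the receptor of Sema7a, gave 3044, 4017 and 4011 and lay 4.49 ± 0.19 log2 units above (SE, n = 3; limma adjusted p = 2.17e-06). A second of its 6 probe sets lay 3.47 ± 0.21 above, and the other 4 lay between -5.82 and -1.55. Plxnd1, known from endothelium and as the receptor of Sema3e, gave 1262, 1300.3 and 1190.4 and lay 2.94 ± 0.21 above (7.69-fold; limma adjusted p = 1.70e-05). Both of these receptors were above the level on all 3 arrays.

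Several probe sets of 1 gene often disagreed. Of the 19 members above background with more than 1 probe set, 5 had all of them above background (26.3%), beside 32.96% of all genes of that kind. They were Sema3c, Sema3d, Sema4f, Plxnb1 and Nrp1. In 11 of the 19 (57.9%) only 1 probe set was above, beside 37.5% of all 6820 genes of that kind. With the mean over probe sets in place of the brightest, 14 members were above background, 8 ligands and 6 receptors (45.2%, 40% and 54.5%), beside 50.4% of all genes. Under that rule the receptors' share was near that of all genes. The members that lost their call were Sema3e, Sema3f, Sema4d, Sema5a, Sema6d, Plxna2, Plxnb3, Plxnc1 and Nrp2. Plxnc1 then lay at -0.29 and Sema5a at 0.38.

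**Figure D3:**
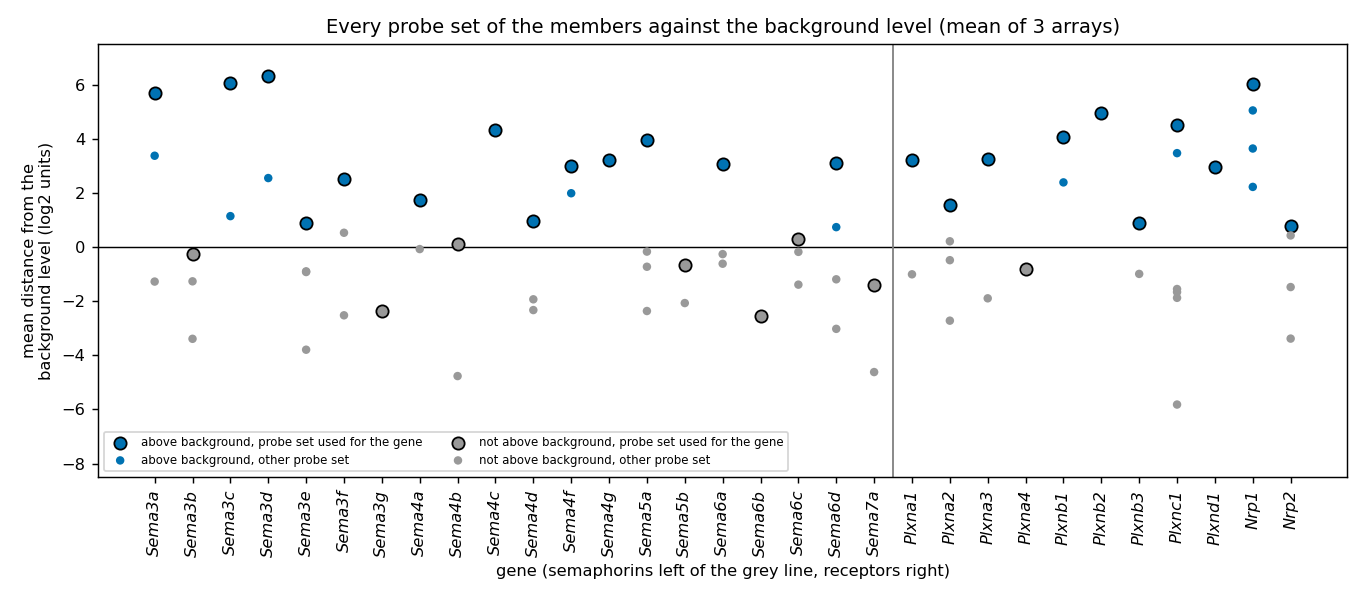
Mean distance from the background level (log2 units, 3 arrays) of all 78 member probe sets, by gene, with outlined large points for the probe set that represents the gene. The 33 points above background by the test are blue, and genes such as Plxnc1 (from -5.82 to 4.49) and Sema3a (from -1.28 to 5.69) hold both blue and grey points.

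The spread over arrays was small for most detected members. After centring each array on its median, the SD over the 3 arrays had a median of 0.14 log2 units in the 23 members above background, beside 0.16 in all 10422 genes above background. It was 0.19 in the 13 ligands and 0.12 in the 10 receptors. Plxna1 had the lowest value (0.03), and Plxnb3 and Sema3e had the highest (both 0.56). Replicate 2 gave the highest signal for 13 of the 23 members (56.5%), beside 33.1% of all genes above background. Among ligands it exceeded the mean of the other arrays by a median of 0.21, and among all genes above background by 0.02. No group difference can be read from this, as the arrays are replicates.

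Known ligand and receptor pairs were counted next. Of 23 textbook pairs, 16 had both genes above background, 2 had the ligand alone, 4 the receptor alone and 1 neither. Of all single genes 57.3% were above background. Here and below such a share is of single genes and is no baseline for a count of pairs. Several pairs also share a gene, such as Nrp1, so the pairs are not independent. For Sema3a, Sema3c and Sema3d with Nrp1, both sides lay 5.69 to 6.31 log2 units above background. Sema4c and Plxnb2 lay at 4.31 and 4.97, and Sema6d and Plxna1 at 3.10 and 3.21. Sema4d lay at 0.96 and its receptors Plxnb1 and Plxnb2 at 4.05 and 4.97, and Sema3e lay at 0.89 and Plxnd1 at 2.94. Levels of different genes' probe sets cannot be ranked against each other. The receptor alone was above background for Sema7a with Plxnc1 (4.49) or the integrin Itgb1 (5.69), Sema5b with Plxna1 and Sema3g with Nrp2. The ligand alone was above for Sema3a and Sema6a with Plxna4. The count fell to 10 pairs when the level was set at the 99th percentile of the chemosensory receptors, where 52.9% of all genes were above it. It was also 10 with a level from genes restricted to other tissues, where 51.4% of all genes were above. It was 7 with the mean over probe sets, where 50.4% of all genes were above. These pairs were measured in 1 sorted population, and the counts do not show that a ligand meets its receptor.

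**Figure D4:**
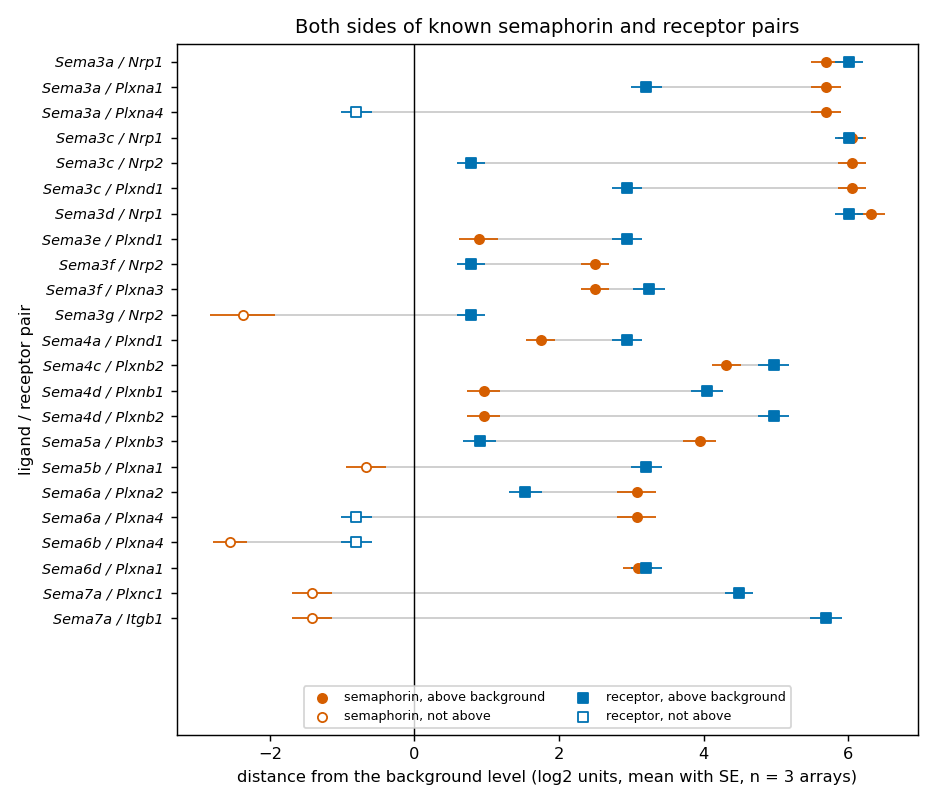
Distances from the background level (log2 units, mean with SE, n = 3 arrays) of the semaphorin (circle) and the receptor (square) of 23 known pairs, filled where the gene was above background. In 16 pairs both symbols are filled, and the Nrp1 pairs of Sema3a, Sema3c and Sema3d have both symbols between 5.69 and 6.31.

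Genes that work with or below the receptors were read from lists. Of 49 measured pathway genes 37 were above background (75.5%), beside 57.3% of all genes. That share rises with the number of probe sets of a gene, as given above. A share at equal probe set numbers was not worked out for the pathway and marker lists. Cytoplasmic partners were above in 27 of 32 cases (84.4%), with a median distance of 3.48 log2 units. The collapsin response mediators, which carry semaphorin signals to microtubules, were split, with Dpysl2 at 8.20 ± 0.19, Dpysl3 at 5.98 ± 0.22 and Dpysl4 at 1.58 ± 0.21 (SE, n = 3), and Crmp1 (-0.36 ± 0.21) and Dpysl5 (-0.12 ± 0.19) not above background. Many of these partners, such as the small GTPases and their kinases, are made in most cells. The exchange factors Arhgef12 (6.56 ± 0.20) and Arhgef11 (2.97 ± 0.23), which link B plexins to RhoA, were named after their values were seen. Co-receptors were above background in 7 of 13 cases (53.8%), with Met at 2.39 ± 0.21, Erbb2 at 1.86 ± 0.19 and Nrcam at 0.69 ± 0.24. L1cam (0.36 ± 0.19) and Cntn2 (0.01 ± 0.35) were not. In the test over all probe sets, none of the 4 Nrcam probe sets passed, and 1 of 2 passed for Met. Of the growth factors that bind neuropilins, Vegfc lay at 3.27 ± 0.21, Vegfa at 2.18 ± 0.25 and Vegfb at 0.93 ± 0.28, while Pgf lay at -2.12 ± 0.60.

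Some members are known from cells other than stroma, so markers of those cells are given beside them, to be read against the 57.3% of all genes above background. For Plxnd1 and Nrp1, which endothelium also makes, 7 of 12 endothelial markers (58.3%) were above background, with summed signals of 4184 to 4667 per array. Tek lay at 2.85 ± 0.20, Cdh5 at 1.30 ± 0.22 and Kdr at 1.06 ± 0.20 (SE, n = 3), and Pecam1 (-1.65 ± 0.72) and Flt1 (-0.68 ± 0.24) were not above background. For Sema4a and Sema4d, known from leukocytes, 1 of 9 leukocyte markers (11.1%) was above, Csf1r at 1.14 ± 0.20, with summed signals of 1065 to 1174. Ptprc lay at -1.06 ± 0.32 and Cd68 at -0.58 ± 0.20. For Plxna4 and Sema3a, known from neurons, 3 of 6 neural markers (50%) were above, namely Stmn2 at 0.79 ± 0.21, Elavl4 at 1.56 ± 0.24 and Dbh at 2.45 ± 0.23, and Tubb3 (-3.92 ± 0.29) and Sox10 (-0.21 ± 0.20) were not. Their summed signals were 1764 to 2066. Of the ureteric bud markers, 5 of 10 (50%) were above background, with summed signals of 4948 to 6183. Wnt11 lay at 2.05 ± 0.23, Calb1 at 1.63 ± 0.28 and Epcam at 4.12 ± 0.24. Ret (-0.35 ± 0.25) and Wnt9b (-0.14 ± 0.21) were not above background. Of the early nephron markers, 4 of 7 (57.1%) were above, with summed signals of 30115 to 31813. Among these, Ccnd1, a cyclin that many dividing cells make, lay at 6.78 ± 0.22, Cdh6 at 6.09 ± 0.21, Jag1 at 3.07 ± 0.23 and Dll1 at 1.001 ± 0.26, and Wnt4 (-0.084 ± 0.20), Pax8 (-0.37 ± 0.26) and Lhx1 (-0.52 ± 0.36) were not above background. The early nephron sum in replicate 1 was 31538, of which Ccnd1 gave 19151 and Cdh6 10002. Of the podocyte markers, 2 of 4 (50%) were above, with summed signals of 1413 to 1521. Ccnd1 and Lhx1 are named after their values were seen. The part of these cells in the members' signals was not tested.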

How the data were processed

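The authors deposited linear intensity values of 1-colour arrays. GCOS is named in the submitters' processing notes, with signal algorithm and scaling not given in the sources used here. A mean trimmed by 2% at both ends came to 1500.01 for each array, so the arrays share a scale. Of 45101 probe sets, 64 were controls, 34945 had 1 symbol, 932 several and 9160 none, and the latter 2 kinds were not used for genes. Symbols were checked by Entrez ID against RefSeq (GRCm38.p6), where 34741 matched and 0 changed.

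Signals were taken as log2 with no offset. limma 3.58.1 in R 4.3.3 (lmFit with an intercept, eBayes, prior df 3.69) tested distances from the level, which carry the spread of the level too. The same test was run over all probe sets. The script was tested on simulated data. Precision is limited by the number of arrays. Of the listed genes, 16 had no value. The members, lists, pairs and tests were chosen with earlier results of these data known. The genes named are all members and, in the pathway lists and the interstitium, cap mesenchyme, endothelial, leukocyte and neural marker lists, the first 3 genes that passed and the first 2 that did not. The named ureteric bud markers follow the same rule. Not every such gene is named. Gdnf, Itga8, Uncx, Ccnd1, Lhx1, Itgb1, Arhgef11 and Arhgef12 stand outside that rule. Alternatives changed the percentile, the background genes, a common level, the probe set rule, cross-hybridising probe set types, normalization, a filter on dim genes, an offset of 32 and each replicate.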

Additional observations from a re-analysis of the deposited data

How the results depend on the processing

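Of 23 members above background, 13 kept their direction and their side of the threshold in all 12 alternatives: Sema3a, Sema3c, Sema3d, Sema4c, Sema4f, Sema4g, Sema6a, Plxna1, Plxna3, Plxnb1, Plxnb2, Plxnd1 and Nrp1. The same share over all genes above background was not worked out, so this count cannot be called high or low for these arrays. Over single members and settings, 334 of 368 values kept direction and side, 22 lost a call and 1 gained one. Of the 22, 8 also changed sign, and 11 further changes of sign were in members not above background. With the common level or the filter on dim genes, a member's distance stays the same by construction. In those settings only the side of the threshold could change, so the kept directions there carry no information. Leaving out 1 replicate gave 22 to 24 members above background, 12 to 14 ligands, 9 to 10 receptors and 34 to 36 pathway genes. Of all genes 54.6% to 57% were then above background. Member probe sets above background numbered 30 to 31, beside 39.4% to 40.7% of all probe sets, and pairs numbered 14 to 16. The distance of Sema4b then ran from -0.037 to 0.18 and that of Sema6c from -0.12 to 1.10. With the mean over probe sets, 14 members, 8 ligands, 6 receptors and 7 pairs were above background, and the distances that changed sign were Sema3e (-0.98), Sema4b (-2.13), Sema4d (-0.90), Sema6c (-0.22), Plxna2 (-0.16), Plxnc1 (-0.29) and Nrp2 (-0.71). Averaging in dim probe sets lowers a gene's signal by construction, but the level was also set anew from such means. Sema4c, with 1 probe set, then lay at 4.52 in place of 4.31. Under that rule 50.4% of all genes were above background. Without probe sets ending in _x_at, _s_at or _a_at, Sema3f (-2.44), Sema6c (-1.31) and Plxnb3 (-0.91) changed sign, and Sema4a lost its call (0.0051). The _a_at ending marks probe sets that match several transcripts of 1 gene. At the 99th percentile 10 pairs were counted, Sema4b lay at -0.38 and Sema6c at -0.17, and Sema3e, Sema4d, Plxnb3 and Nrp2 lost their calls. With genes restricted to other tissues as background, 10 pairs were counted, Sema4b lay at -0.70, Sema6c at -0.49 and Nrp2 at -0.012, and Sema3e, Sema4d and Plxnb3 lost their calls. At the 90th percentile Sema3b lay at 0.11. The cause of these changes was not tested. No paired analysis was possible because the series holds 1 group. A signal near background is limited by the spread of the level between arrays, and no undetected member was shown to be absent.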
